A study of Mus musculus with 27 samples.

Results

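The transcripts described here are those of 10 immediate early genes, namely Fos, Fosb, Jun, Junb, Atf3, Egr1, Egr2, Egr3, Ier2 and Ier3. They were chosen by gene symbol as well-known genes of this class, not by their measured values, though with earlier results of these data known. They make up 10 of the 21742 rows of the table of linear transcripts. All 10 were found there once, and none was among the 4416 symbols of the accompanying table of circular transcripts. The mice were of the BALB/c AnNHsd strain, 87 days old, and RNA of the left lobe of the lung was depleted of ribosomal RNA and sequenced in 27 stranded libraries. The Saline group (n = 5) was unsensitized. The CDG_HDM group (n = 10) had been sensitized in the lung with house dust mite extract and the adjuvant cyclic di-GMP, a bacterial second messenger, over a protocol of 35 days. The Dex_CDGHDM group (n = 6) was sensitized and received 3 intraperitoneal doses of dexamethasone, a synthetic glucocorticoid, at 3 mg/kg on days 11, 18 and 25. The AM155 group (n = 6) received 3 intravenous doses of 2 mg/kg of an antimiR-155 antisense oligonucleotide, which is directed at the microRNA miR-155, in lipid nanoparticles, and its dosing days were also 11, 18 and 25. That these mice were sensitized too is not stated in words in their labels, and no group received nanoparticles or an injection vehicle alone. The labels number the libraries of a group but do not say that each came from a different mouse, so the p-values below measure only the spread between these libraries, which may be technical.

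Immediate early genes are transcribed within minutes of a signal at the cell surface, from factors already present in the cell, and most of their transcripts are short-lived. Serum response factor with its partners at CArG boxes and CREB at cyclic AMP response elements are the textbook activators, both reached through kinase cascades. The proteins of the Fos, Jun and Atf families pair through leucine zippers to form AP-1, and the Egr proteins are zinc finger factors. In the lung these genes are known to respond to growth factors, stretch, injury and inflammatory signals. The activated glucocorticoid receptor is known to restrain AP-1.

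Values are in TPM, a length-corrected share of all transcripts in a library, so the tables carry no read depth. The linear table summed to 806446 to 858506 TPM in the Saline libraries, 628177 to 798457 in CDG_HDM, 629353 to 767968 in Dex_CDGHDM and 542264 to 770987 in AM155. The shares that follow assume that the linear and circular tables are parts of the same total, which was not checked. On that assumption circular transcripts also take from the linear sum, and to a different degree in each library. Transcripts in neither table then took 9.57% to 11.1% of the total in Saline and 15.2% to 32.8% in CDG_HDM. They took 13.0% to 27.9% in Dex_CDGHDM and 13.8% to 27.7% in AM155. Every difference below was taken between groups of log2(TPM + 1), which understates the change of genes with low TPM, and was tested with limma over 17437 genes with Benjamini-Hochberg adjustment and a threshold of 0.05. In CDG_HDM against Saline 5607 of these genes passed, which is 32.2%. Of them 29.1% were higher in CDG_HDM. That share became 49.8% after median-of-ratios scaling, 46.1% after quantile normalization and 62.8% with the table rescaled to a common sum, and the median difference of all genes moved from -0.10 to 0.00, -0.01 and 0.04.

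Of the 10 immediate early genes, 5 fell with sensitization, 1 rose and 4 did not pass the test. Fosb, Jun, Egr1, Ier2 and Ier3 were lower in CDG_HDM than in Saline, and Egr2 was higher. The share of all genes called lower was 22.8% and the share called higher 9.35%. The median difference of the 10 genes was -0.43, against -0.10 over all genes tested. In bulk RNA, fewer cells of a type that carries these transcripts and less of the RNA in each cell cannot be told apart.

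The promoters of 5 of the 10 genes are printed to set genes that moved in opposite directions side by side. They are Fosb, Jun and Ier3, which fell, Egr2, which rose, and Fos, the most variable of the set. Promoters were available for 7 of the 10 genes. Those of Egr1 and Ier2, which also fell, and of Egr3 were not, so the genes that fell are shown only in part. Each line gives the 250 bases before the transcription start in RefSeq, assembly GRCm38.p6, which is the C57BL/6J genome and not that of BALB/c. Capitals mark matches to the TATA box, the core of the cyclic AMP response element, the AP-1 site, the GC box, the CCAAT box and the CArG box, searched on both strands.
Fosb, chr7:19310046-19310295, minus strand: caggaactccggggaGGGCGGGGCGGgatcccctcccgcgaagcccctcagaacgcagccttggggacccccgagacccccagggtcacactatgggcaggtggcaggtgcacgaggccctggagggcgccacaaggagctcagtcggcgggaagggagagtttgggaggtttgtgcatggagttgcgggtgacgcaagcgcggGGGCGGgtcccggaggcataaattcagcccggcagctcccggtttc
Jun, chr4:95052223-95052472, minus strand: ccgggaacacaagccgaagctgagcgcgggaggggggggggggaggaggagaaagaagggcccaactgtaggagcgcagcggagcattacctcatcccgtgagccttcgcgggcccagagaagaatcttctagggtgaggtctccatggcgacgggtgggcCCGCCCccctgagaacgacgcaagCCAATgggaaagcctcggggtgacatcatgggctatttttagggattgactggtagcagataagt
Ier3, chr17:35821463-35821712, plus strand: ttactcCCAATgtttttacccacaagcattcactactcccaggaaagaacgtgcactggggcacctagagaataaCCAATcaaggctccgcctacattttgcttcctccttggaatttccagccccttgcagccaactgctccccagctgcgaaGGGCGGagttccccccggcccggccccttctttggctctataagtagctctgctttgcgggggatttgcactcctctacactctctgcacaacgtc
Egr2, chr10:67537619-67537868, plus strand: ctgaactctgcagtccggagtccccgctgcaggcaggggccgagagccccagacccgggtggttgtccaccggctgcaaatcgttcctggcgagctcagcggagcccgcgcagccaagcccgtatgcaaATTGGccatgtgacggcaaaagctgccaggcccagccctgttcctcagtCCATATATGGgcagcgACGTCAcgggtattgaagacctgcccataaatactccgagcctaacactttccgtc
Fos, chr12:85473640-85473889, plus strand: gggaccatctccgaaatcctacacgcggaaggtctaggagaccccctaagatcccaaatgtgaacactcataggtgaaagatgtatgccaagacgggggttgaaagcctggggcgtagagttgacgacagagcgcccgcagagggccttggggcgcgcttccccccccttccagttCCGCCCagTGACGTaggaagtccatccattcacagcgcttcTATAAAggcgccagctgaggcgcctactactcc

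The Egr2 start is 1 of 5 in the RefSeq table. In this window Egr2 carried a CArG box at -72 to -63, a response element core at -56 to -51 and a CCAAT box at -121 to -117, with positions counted back from the start. Fos carried a TATA box at -33 to -28, a response element core at -66 to -61 and a GC box at -74 to -69. Fosb, Jun and Ier3 carried GC boxes, 3 in Fosb (2 of them overlapping), 1 in Jun and 1 in Ier3. Jun also held 1 CCAAT box and Ier3 held 2. Of the available promoters not printed, that of Atf3 held a response element core at -8 to -3 and 5 GC boxes. That of Junb held a CCAAT box at -36 to -32. Neither gene passed in CDG_HDM against Saline. Background shares were taken over 32851 promoter windows of the same length. A CArG box was in 1.47% of them, a CCAAT box (searched as CCAAT) in 33.8% and a GC box, searched as GGGCGG, in 32.7%. The response element core, for which the letters TGACGT were searched, was in 6.47%. The TATA box was searched as TATAAA and was in 12.4% of windows. The AP-1 site was searched as TGANTCA, a pattern that matched in 6.75% of windows and in none of the printed promoters. Such matches describe the letters and are no measure of binding. Longer or altered forms of the letters, such as tgacatca in the printed Jun promoter, were not counted. Bases farther from the start than the window were not searched. An absent match, such as that of a CArG box in Fos, therefore does not show that the gene lacks the site.

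**Figure D1:**
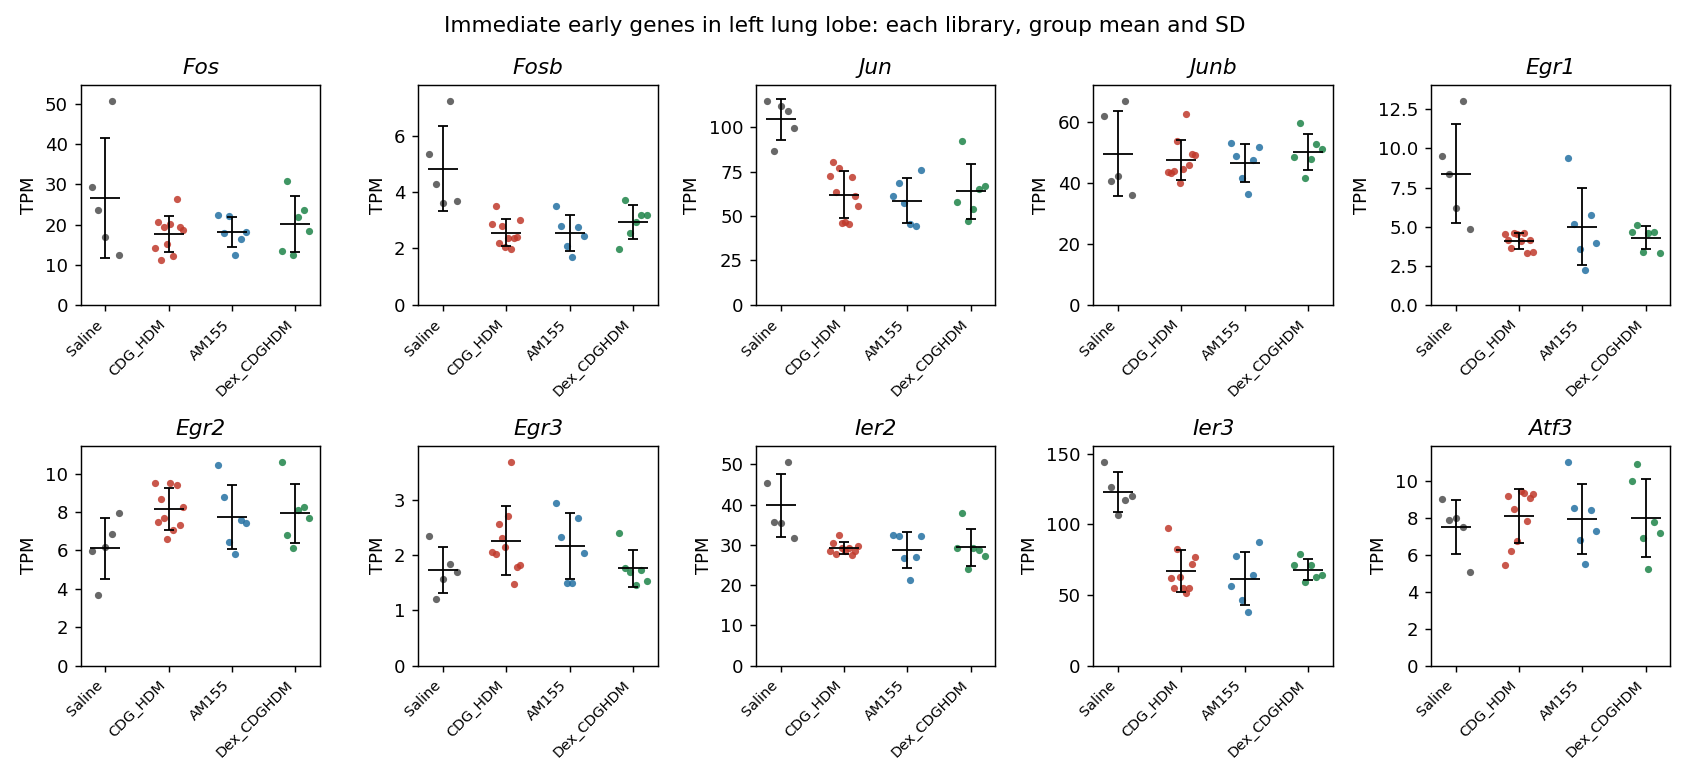
TPM of each of the 10 genes in the 27 libraries, 1 panel per gene with its own axis from 0; points are libraries, the bar is the group mean and the whisker the SD. In the Fosb, Jun, Egr1 and Ier3 panels all 10 CDG_HDM points sit below all 5 Saline points, whereas the Fos and Junb points overlap.

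Fos (chr12:85473890-85477273, GRCm38, plus strand) encodes the partner that gives AP-1 its inducible activity. Its level was 29.5, 23.6, 16.8, 50.7 and 12.4 TPM in Saline libraries 2, 4, 5, 8 and 10. In CDG_HDM it ran from 11.2 to 26.3 TPM with a median of 19.0, in AM155 from 12.5 to 22.3 with a median of 18.0, and in Dex_CDGHDM from 12.4 to 30.9 with a median of 20.1. Saline 8 stood above every other library, and the only libraries below Saline 10 were 2 of CDG_HDM. The difference of -0.44 ± 0.227 (SE) between CDG_HDM and Saline did not pass (limma adjusted p = 0.139), although all 10 CDG_HDM libraries lay below the Saline mean of 26.6 ± 15.0 TPM (SD, n = 5). Without Saline 10 the difference was -0.66 and passed (adjusted p = 0.0278), and over all libraries left out in turn it ran from -0.66 to -0.18.

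Fosb (chr7:19302696-19310051, minus strand), the paralog of Fos whose truncated form is long-lived, stood at 5.36, 4.27, 3.61, 7.22 and 3.69 TPM in the same 5 Saline libraries. In CDG_HDM it ran from 1.98 to 3.49 TPM with a median of 2.39, in AM155 from 1.70 to 3.50 with a median of 2.60 and in Dex_CDGHDM from 1.97 to 3.70 with a median of 3.05. No CDG_HDM or AM155 library reached the lowest Saline library, and 5 of 6 Dex_CDGHDM libraries stayed below it. Fosb fell by 0.69 ± 0.128 on the log2 scale in CDG_HDM (adjusted p = 0.000103), from 4.83 ± 1.51 to 2.55 ± 0.477 TPM (SD, n = 5 and 10).

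Jun (chr4:95049034-95052222, minus strand) encodes a partner that Fos proteins need to bind DNA. Saline libraries 2, 4, 5, 8 and 10 gave 115, 86.5, 112, 109 and 99.5 TPM. CDG_HDM libraries ran from 45.6 to 80.2 TPM with a median of 62.4, AM155 from 44.1 to 75.7 with a median of 59.3 and Dex_CDGHDM from 47.2 to 91.9 with a median of 61.6. Again no CDG_HDM or AM155 library overlapped Saline, and 1 Dex_CDGHDM library rose above the lowest Saline value. Jun fell by 0.76 ± 0.148 in CDG_HDM (adjusted p = 0.000188).

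Junb (chr8:84974484-84978718, minus strand), a Jun paralog with weaker activating power and a known role in helper T cell differentiation, gave 62.3, 40.7, 42.3, 67.0 and 36.0 TPM in Saline. Its range in CDG_HDM was 40.2 to 62.8 TPM with a median of 45.3, in AM155 36.6 to 53.2 with a median of 48.2 and in Dex_CDGHDM 41.6 to 59.8 with a median of 49.9. Every library outside Saline lay inside the Saline range, and the difference between CDG_HDM and Saline was -0.02 ± 0.122 (95% interval -0.27 to 0.23, adjusted p = 0.904). That sign turned positive under each of the 3 other scalings, at 0.06 to 0.14.

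Atf3 (chr1:191170296-191218039, minus strand), a stress-induced AP-1 partner that mostly represses, gave 9.02, 7.88, 7.99, 7.52 and 5.05 TPM in Saline. The CDG_HDM libraries ran from 5.47 to 9.44 TPM with a median of 8.77, AM155 from 5.50 to 11.0 with a median of 7.86 and Dex_CDGHDM from 5.22 to 10.9 with a median of 7.49. All groups overlapped, and the difference between CDG_HDM and Saline was 0.10 ± 0.146 (adjusted p = 0.628).

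The Egr genes encode closely related zinc finger factors that bind the same GC-rich element, and here Egr1 and Egr2 moved in opposite directions. Egr1, the best known growth factor response gene of the family, gave 9.48, 8.38, 6.22, 13.0 and 4.82 TPM in Saline. In CDG_HDM it lay in a narrow band from 3.32 to 4.62 TPM with a median of 4.14, in Dex_CDGHDM from 3.30 to 5.07 with a median of 4.65, and in AM155 from 2.20 to 9.40 with a median of 4.56. No CDG_HDM library reached the lowest Saline library, 5 of 6 Dex_CDGHDM libraries stayed below it, and AM155 spread on both sides with 3 of 6 below it. Egr1 fell by 0.82 ± 0.181 in CDG_HDM (adjusted p = 0.00069), from 8.38 ± 3.16 to 4.09 ± 0.499 TPM.

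Egr2 (chr10:67535475-67542188, plus strand), known in T cells and macrophages for restraining activation as well as for its role in Schwann cells, gave 5.95, 3.65, 6.19, 6.83 and 7.97 TPM in Saline. CDG_HDM ran from 6.58 to 9.50 TPM with a median of 7.95, AM155 from 5.79 to 10.4 with a median of 7.49 and Dex_CDGHDM from 6.14 to 10.6 with a median of 7.87. The groups overlapped, with 5 of 10 CDG_HDM libraries above every Saline library and 10 of 10 above the Saline mean. Egr2 rose by 0.38 ± 0.129 in CDG_HDM (adjusted p = 0.0214). Without Saline 4, the lowest Saline library, the difference was 0.24 and did not pass (adjusted p = 0.108).

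Egr3 (chr14:70077203-70082614, plus strand), which acts beside Egr2 in lymphocytes, was the scarcest of the 10 and gave 2.34, 1.20, 1.57, 1.84 and 1.69 TPM in Saline. CDG_HDM ran from 1.47 to 3.69 TPM with a median of 2.11, AM155 from 1.49 to 2.95 with a median of 2.19 and Dex_CDGHDM from 1.46 to 2.40 with a median of 1.71. The groups overlapped, with 9 of 10 CDG_HDM libraries above the Saline mean. The difference of 0.25 ± 0.124 did not pass as deposited (adjusted p = 0.129), and it passed under median-of-ratios scaling (0.32, adjusted p = 0.0322), quantile normalization (0.33, 0.0231) and a common sum (0.35, 0.0195).

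Ier2 (chr8:84661331-84662852, minus strand) encodes a small nuclear protein of the early growth response. Saline libraries gave 45.3, 35.7, 35.6, 50.6 and 31.8 TPM, and CDG_HDM libraries lay between 27.6 and 32.5 TPM with a median of 28.9. AM155 ran from 21.3 to 32.5 TPM with a median of 29.6 and Dex_CDGHDM from 24.0 to 37.9 with a median of 29.1. In TPM as deposited, all but 1 of the 10 CDG_HDM libraries lay below every Saline library. That count was not repeated under the other scalings. Ier2 fell by 0.41 ± 0.102 in CDG_HDM (adjusted p = 0.00208), and the difference ran from -0.45 to -0.25 over the 9 alternative settings.

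Ier3 (chr17:35821684-35822923, plus strand), a target of NF-kappaB and p53 that affects cell survival, had the highest mean TPM of the 10 in Saline, with an overlap with Jun, at 144, 126, 106, 117 and 120 TPM. CDG_HDM ran from 51.6 to 97.2 TPM with a median of 62.5, AM155 from 37.9 to 87.3 with a median of 60.4 and Dex_CDGHDM from 58.9 to 79.3 with a median of 67.7. Ier3 was the one gene of the 10 for which none of the 22 libraries outside Saline overlapped the Saline range. It fell by 0.89 ± 0.149 in CDG_HDM (adjusted p = 3.16e-05), from 123 ± 14.0 to 67.0 ± 14.9 TPM.

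Counted by range in TPM as deposited, 4 of the 10 genes (Fosb, Jun, Egr1 and Ier3) had CDG_HDM libraries wholly below Saline, against 8.92% of all genes tested. None had them wholly above, against 5.06%. Every linear sum of CDG_HDM (at most 798457 TPM) also lay below every one of Saline (at least 806446). The ranges here and of each single gene were not taken again under the other scalings. The calls of Fosb, Jun, Egr1, Ier2 and Ier3 held under all 9 alternative settings and with each of the 27 libraries left out in turn, with highest adjusted p-values of 0.00473, 0.00603, 0.00639, 0.0351 and 0.000279.

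**Figure D2:**
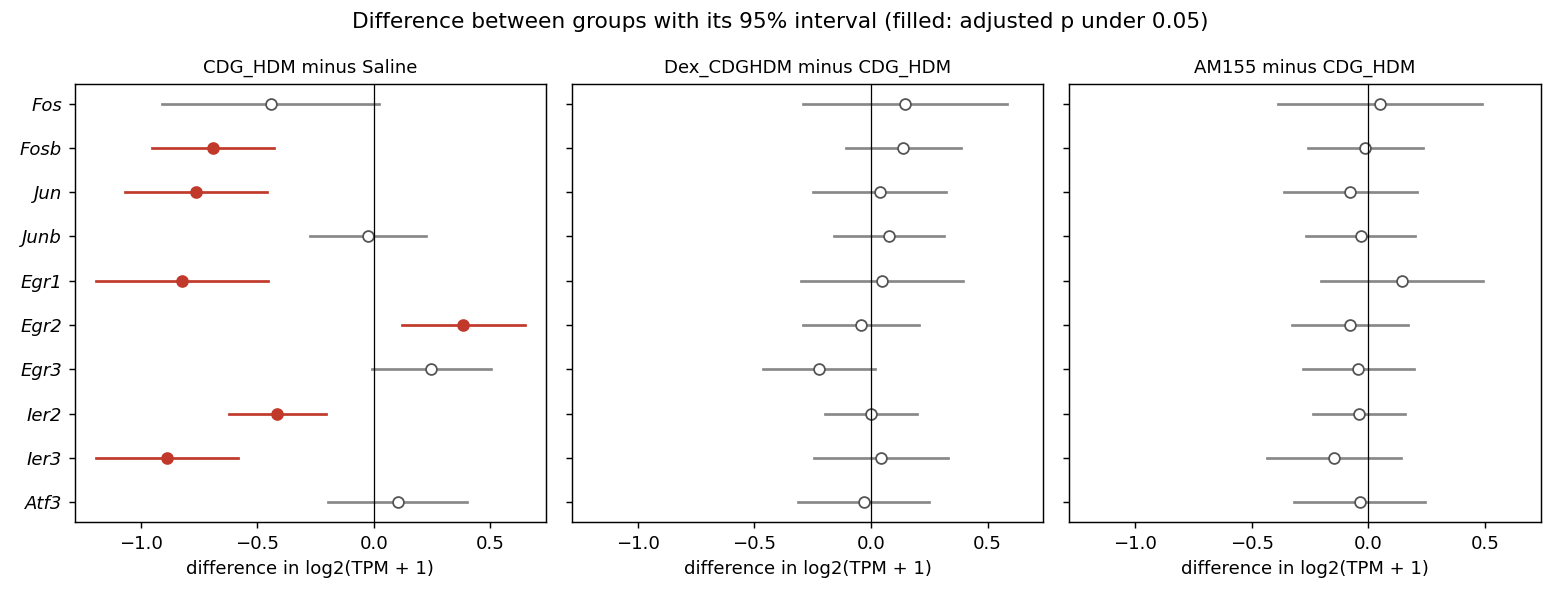
Difference in log2(TPM + 1) between groups for each of the 10 genes, with its 95% interval, in separate panels per comparison; filled points passed at an adjusted p under 0.05. Of the 10 points in the panel of CDG_HDM minus Saline 6 are filled, and none is filled in the panels that set a treated group against CDG_HDM.

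Markers of the cell types of the lung differed in the same comparison, where 22.8% of all genes tested fell and 9.35% rose. Endothelial markers fell in 12 of 13 cases, with a summed level of 3186 to 3722 TPM in Saline and 1303 to 2559 in CDG_HDM. Smooth muscle markers fell in 10 of 10, from 702 to 934 TPM down to 204 to 510. Club and ciliated cell markers fell in 7 of 9, from 67120 to 79330 TPM down to 22559 to 51658. Most of that last sum was Scgb1a1, with means of 70517 TPM in Saline and 32371 in CDG_HDM. Macrophage markers rose in 10 of 12 and fell in 1, from 277 to 311 TPM up to 762 to 1703, and T cell markers rose in 10 of 11, from 106 to 185 TPM up to 273 to 465. Alveolar type 1 markers fell in 8 of 9 and heart muscle markers in 10 of 10, and neutrophil markers fell in 6 of 10 and rose in none. B and plasma cell markers rose in 5 of 10 and fell in none, from 292 to 433 TPM up to 2190 to 4068. Most of their sum in CDG_HDM was Jchain, with means of 16.7 TPM in Saline and 2670 in CDG_HDM. Alveolar type 2 markers rose in 4 of 10 (Sftpa1, Sftpd, Lamp3 and Lyz2) and fell in none, and fibroblast markers rose in 2 and fell in 4 of 10. Over 5 alternative settings, 3 to 8 alveolar type 2 markers and 5 to 8 B and plasma cell markers were called in either direction. No marker of these lists was at 0 in the Saline or the CDG_HDM group, and lung epithelial markers such as Scgb1a1 (70517 ± 4943 TPM in Saline) and Sftpc were abundant throughout. The part of these shifts in the levels of the immediate early genes was not tested.

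Dexamethasone was compared with sensitization alone to ask whether it altered these transcripts, given the known restraint of AP-1 by the glucocorticoid receptor. The last dose was on day 25 of a protocol of 35 days, so the hours after a dose were not tested. None of the 10 genes passed, where 1 of 17437 genes tested did (0.00573%) and 693 had an unadjusted p under 0.05. The differences ran from -0.22 for Egr3 to 0.15 for Fos. For Fos, 20.1 ± 6.89 TPM (SD, n = 6) stood against 17.7 ± 4.53 (n = 10), a difference of 0.15 ± 0.214 with a 95% interval of -0.29 to 0.59. For Ier2 the difference was -0.00 ± 0.0962, with an interval of -0.20 to 0.20. The lowest unadjusted p, 0.0658, belonged to Egr3 (-0.22 ± 0.117, adjusted p = 1.00), for which the interval was -0.46 to 0.02. These intervals bound the change and do not show the groups to be alike. Against Saline, the dexamethasone group had lower Fosb (-0.55 ± 0.141, adjusted p = 0.00428), Jun (-0.72 ± 0.164, 0.0014), Egr1 (-0.77 ± 0.200, 0.00452), Ier2 (-0.42 ± 0.113, 0.00669) and Ier3 (-0.84 ± 0.165, 0.000309), where 25.1% of all genes tested were called, 17.5% lower and 7.59% higher. The share of calls that were higher was 30.3% as deposited, and 50.8%, 47.3% and 71.3% under median-of-ratios scaling, quantile normalization and a common sum. Ier2 lost its call with a common sum (-0.21, adjusted p = 0.0813). Egr2 missed as deposited (0.34, adjusted p = 0.078) and passed under the 3 other scalings (0.43 to 0.52) and with quality weights (0.26, adjusted p = 0.0397), as well as without Saline 10 (0.43, 0.0337) or Dex_CDGHDM 3 (0.40, 0.0496). Only Ier3 had all 6 dexamethasone libraries below Saline, where 12% of all genes tested did.

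The antisense oligonucleotide is directed at miR-155, the mature sequence of which is printed from RefSeq (GRCm38.p6, chr16:84714143-84714165, plus strand) with the seed, bases 2 to 8, in capitals.
mmu-miR-155-5p: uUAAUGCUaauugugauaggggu

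Matches to that seed, either AGCATTA or GCATTAA, were found in the longest 3' untranslated region of none of the 10 genes, where 2643 of 20981 genes (12.6%) held one. None of the 10 passed in AM155 against CDG_HDM, where 18 of 17437 genes tested did (0.103%) and 1263 had an unadjusted p under 0.05. The differences ran from -0.15 ± 0.141 for Ier3 (adjusted p = 0.733, 95% interval -0.43 to 0.14) to 0.15 ± 0.170 for Egr1 (adjusted p = 0.772, interval -0.20 to 0.49). For Fos, which has been described as a miR-155 target in immune cells, AM155 stood at 18.2 ± 3.69 TPM against 17.7 ± 4.53 in CDG_HDM, a difference of 0.05 ± 0.214 with an interval of -0.39 to 0.49. Neutrophil markers rose in 4 of 10 cases in this comparison, led by Ngp, a neutrophil granule protein (2.36 ± 0.202, adjusted p = 2e-08), while no endothelial or smooth muscle marker passed. Against Saline, AM155 had lower Fosb (-0.70, adjusted p = 0.000288), Jun (-0.84, 0.000209), Egr1 (-0.68 ± 0.200, 0.00844), Ier2 (-0.45 ± 0.113, 0.00225) and Ier3 (-1.03 ± 0.165, 1.86e-05), where 40.5% of all genes tested were called, 32.7% lower and 7.82% higher. The share of calls that were higher was 19.3% as deposited, and 50.5%, 45.1% and 68.6% under the 3 other scalings in the same order. Egr1 lost its call with a common sum (-0.44, adjusted p = 0.0692) and with quality weights on the libraries (-0.42, 0.0786), and Ier2 with a common sum (-0.18, 0.141). Egr2 missed as deposited (0.31, adjusted p = 0.0832) and passed under the 3 other scalings (0.46 to 0.55) and with quality weights (0.32, adjusted p = 0.0249), as well as without Saline 10 (0.40, 0.0369) or AM155 6 (0.37, 0.0469). Fosb, Jun and Ier3 had all 6 AM155 libraries below Saline, where 12.7% of all genes did. The 3 comparisons with Saline share the same 5 Saline libraries, and both treated groups were set against the same 10 CDG_HDM libraries. Set directly against each other, the dexamethasone and AM155 groups differed in none of the 10 genes, where 14 of 17437 genes passed (0.0803%) and 1285 had an unadjusted p under 0.05.

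Egr1 and Fos varied more between libraries of 1 group than most genes did. The residual SD of log2(TPM + 1) within groups was 0.463 for Fos, above 98.0% of all genes tested, and 0.363 for Egr1, above 95.4%. Ier3 (0.295), Jun (0.293), Atf3 (0.287), Egr2 (0.248), Fosb (0.247), Egr3 (0.239) and Junb (0.234) followed, each above 78.8% or more of all genes, and Ier2 was the steadiest at 0.188, above 57.8%. These values are as deposited. After median-of-ratios scaling the SD was 0.451 for Fos and 0.344 for Egr1. For the others it then ran from 0.166 (Ier2) to 0.269 (Atf3), with Jun at 0.215 and Ier3 at 0.254. Ranks among all genes were not taken under that scaling. Fos varied most in Saline (SD 0.745), and Egr1 varied more in AM155 (0.575) than in CDG_HDM (0.145). The library AM155 2 was the highest of its group for 8 of the 10 genes and AM155 6 the lowest for 8, AM155 6 being also the library with the lowest linear sum. In the dexamethasone group, library 2 was the highest for 8 genes and library 3 the lowest for 6. In Saline, library 8 was the highest for 5 genes and library 10 the lowest for 5.

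**Figure D3:**
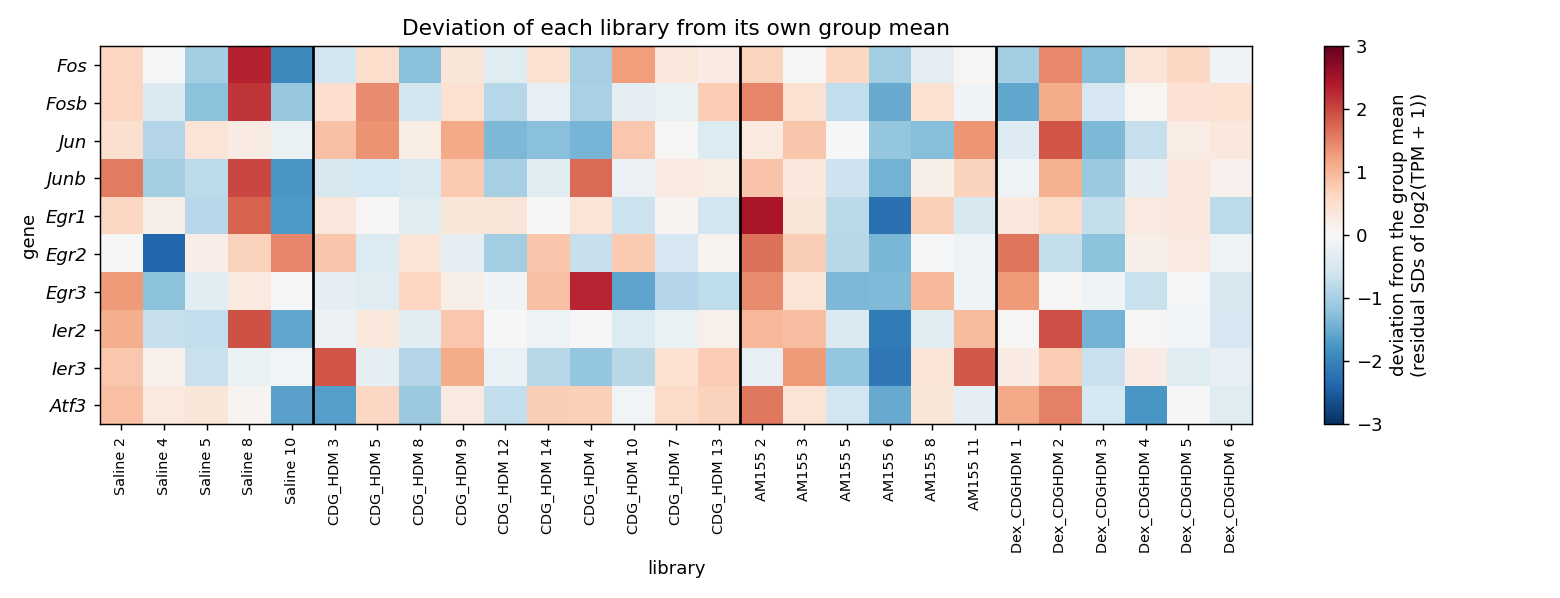
Deviation of each library from its own group mean for the 10 genes, in residual SDs of log2(TPM + 1); rows are genes, columns the 27 libraries in group order, red above and blue below the mean. The columns of AM155 6 and Dex_CDGHDM 3 are blue for all 10 genes. Those of Saline 2, Saline 8, CDG_HDM 9, AM155 2, AM155 3 and Dex_CDGHDM 2 are red for 9 of 10.

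With group means removed, Fos was correlated with the other 9 genes across the 27 libraries, in permutation tests of 100000 draws within groups, adjusted over the 9 relations. Fosb tracked Fos most closely (r = 0.74, permutation p = 0.0001, adjusted p = 0.000675; rho = 0.67, p = 0.00086, adjusted p = 0.00774), followed by Ier2 (r = 0.72, p = 0.00015, adjusted p = 0.000675; rho = 0.62, p = 0.00429, adjusted p = 0.0187). Junb also passed on both measures (r = 0.60, p = 0.0077, adjusted p = 0.0173; rho = 0.58, p = 0.00624, adjusted p = 0.0187), as did Jun (r = 0.43, p = 0.0157, adjusted p = 0.0282; rho = 0.45, p = 0.018, adjusted p = 0.0406). Egr1 passed on r alone (0.55, permutation p = 0.00548, adjusted p = 0.0164; rho = 0.42, p = 0.0543, adjusted p = 0.0927). Atf3 (r = 0.42, rho = 0.39), Ier3 (r = 0.18, rho = 0.16), Egr2 (r = 0.03, rho = 0.09) and Egr3 (r = -0.14, rho = -0.05) did not pass, with adjusted permutation p-values on r of 0.0635, 0.353, 0.901 and 0.542. Without Saline 8 and Dex_CDGHDM 2, the libraries farthest from the median of Fos, r was 0.63 for Fosb, 0.58 for Ier2, 0.45 for Junb, 0.43 for Egr1 and 0.37 for Jun. Within CDG_HDM alone (10 libraries) r was 0.42 for Fosb, 0.14 for Ier2, -0.14 for Junb, 0.35 for Jun and -0.38 for Egr1. The relations to Ier2, Junb and Egr1 were thus not seen in these 10 libraries, which are too few to show them absent. Within AM155 r for the same 5 genes ran from 0.54 to 0.70, and within Dex_CDGHDM from 0.60 to 0.86. No r was taken within the 5 Saline libraries, where Fos varied most (SD 0.745).

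Part of this covariation is shared by the whole table. Across all 17403 genes compared, the median correlation with the mean of the 10 genes was 0.48 as deposited and 0.00 after median-of-ratios scaling. Under that scaling the correlation with Fos was 0.73 for Fosb, 0.71 for Ier2, 0.58 for Junb, 0.51 for Egr1, 0.35 for Jun and 0.37 for Atf3. The rho values were 0.61, 0.60, 0.54, 0.42, 0.26 and 0.34 in the same order. The permutation tests were run on the deposited values only, so whether Jun would pass after scaling was not tested. The 45 pairs among the 10 genes had a median r of 0.42, from -0.14 to 0.82, with 18 above 0.5. The highest was Junb with Ier2. After scaling, the median was 0.25, from -0.54 to 0.78, with 10 pairs above 0.5. The gene most like the mean of the 10 was Nr4a1, an orphan nuclear receptor that is itself an immediate early gene, with r = 0.83 over the 27 libraries and 0.84 after scaling, the highest under both. Enox2 (0.81), Slc25a25 (0.80), Slc16a1 (0.79), Gm8225 (0.79), Ccar2 (0.79), Zfp944 (0.78) and C87414 (0.78) came next as deposited, and fell to between 0.53 and 0.62 after scaling, where 3 of the 8 remained among the top 8.

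Ratios within a library are free of its total. The pairs Egr1 to Egr2, Jun to Junb and Fosb to Fos were picked after their levels had been seen, so that their tests describe what the levels already show. The log2 ratio of Egr1 to Egr2 was 0.67, 1.20, 0.01, 0.93 and -0.72 in Saline libraries 2, 4, 5, 8 and 10, so that 4 of them held more Egr1 than Egr2 in TPM. In CDG_HDM it ran from -1.50 to -0.53, with all 10 libraries below the Saline mean, and the groups overlapped through Saline 10. The means were 0.42 ± 0.776 and -0.99 ± 0.324 (SD, n = 5 and 10), a difference of -1.41 (two-sided exact permutation p = 0.002, adjusted over 3 ratios p = 0.005). The log2 ratio of Jun to Junb was 1.11 ± 0.330 in Saline and 0.36 ± 0.390 in CDG_HDM, a difference of -0.75 (exact permutation p = 0.00333, adjusted p = 0.005), again with 10 of 10 libraries below the Saline mean. The ratio of Fosb to Fos differed by -0.43 (exact permutation p = 0.0533, adjusted p = 0.0533), with 9 of 10 libraries below the Saline mean. It passed without Saline 8 (-0.55, exact permutation adjusted p = 0.02) and without CDG_HDM 3 or CDG_HDM 8. Without Saline 10 it was -0.28 (exact permutation adjusted p = 0.160), and with a pseudocount of 1 it was -0.25 (exact permutation adjusted p = 0.234).

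**Figure D4:**
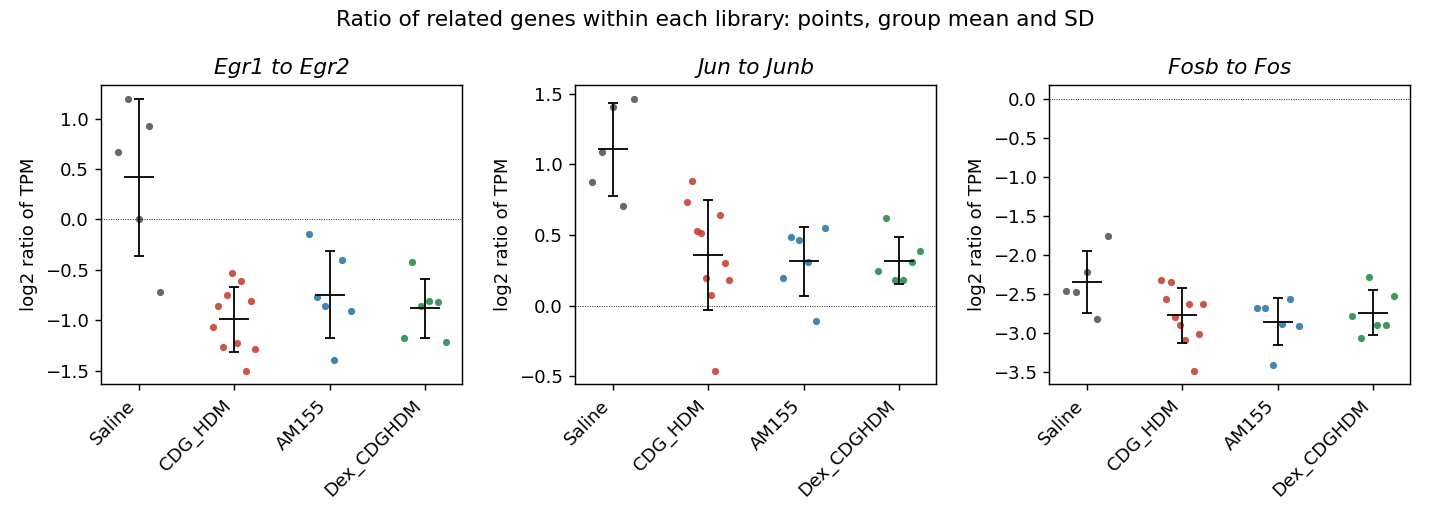
Log2 ratio of TPM between related genes within each library for Egr1 to Egr2, Jun to Junb and Fosb to Fos, by group; points are libraries, with the group mean and SD, and 0 marks equal TPM. The CDG_HDM points lie below the Saline mean in 10, 10 and 9 of 10 libraries.

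Lists of related genes are set here against all genes tested, of which 9.35% rose and 22.8% fell with sensitization, with a median of -0.10. Of 12 other AP-1 genes, 3 rose (25%) and 3 fell (25%), with a median difference of -0.11, so that the share that fell and the median were near those of all genes. All 3 that rose were of the Batf family, which pairs with Jun proteins in lymphocytes and dendritic cells: Batf by 0.77 ± 0.10 (adjusted p = 6.79e-07), Batf3 by 0.86 ± 0.146 (adjusted p = 3.65e-05) and Batf2. Fosl1, Mafk and Atf7 fell. Jund, the constitutive Jun paralog, stood at 98.9 ± 6.36 TPM in Saline and 98.9 ± 21.8 in CDG_HDM (difference -0.02 ± 0.131, adjusted p = 0.910).

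Of 28 further immediate early genes, 25 passed the filter on low values, 3 rose (12%) and 6 fell (24%), with a median of -0.19; both shares were near those of all genes. Nr4a1 fell by 1.06 ± 0.291 (adjusted p = 0.00529), from 23.7 ± 16.0 to 9.09 ± 1.48 TPM. Hbegf, a ligand of the EGF receptor, fell by 0.62 ± 0.104 (adjusted p = 3.1e-05), and Klf2, Klf4, Nr4a3 and Cyr61 fell with it. Btg1, an antiproliferative gene abundant in lymphocytes, rose by 0.66 ± 0.0964 (adjusted p = 3.64e-06), as did Myc and Plk3.

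The feedback inhibitors, which switch the cascade off again, gave 2 higher (13.3%) and 5 lower (33.3%) of 15, with a median of -0.21, against 9.35% and 22.8% of all genes. Dusp1, the phosphatase that dephosphorylates p38 and JNK, fell by 0.82 ± 0.246 (adjusted p = 0.0104), and Spred2 by 0.53 ± 0.0941 (adjusted p = 5.46e-05). Spry1, Spry2 and Spry4 fell too. Dusp2, a phosphatase of lymphoid and myeloid cells, rose by 1.10 ± 0.159 (adjusted p = 3.73e-06), as did Zfp36l2. Of 19 upstream regulators 1 rose (5.26%) and 5 fell (26.3%), again near the shares of all genes. Those that fell included Mapk3, which encodes the kinase ERK1 (-0.47 ± 0.105, adjusted p = 0.000845), Mkl2, a serum response factor partner (-0.32 ± 0.0995, adjusted p = 0.0134), and Srf itself (-0.28 ± 0.0927, adjusted p = 0.0203). That split became 6 higher and 5 lower after median-of-ratios scaling, 5 and 5 after quantile normalization and 6 and 1 with a common sum.

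Of 10 heat shock genes 1 fell (10%, against 22.8% of all genes) and none rose. It was Hspb1 (-0.94 ± 0.280, adjusted p = 0.00983). Of 16 clock genes 5 rose (31.2%) and 6 fell (37.5%). The lowest adjusted p-values belonged to the repressors Bhlhe41 (0.99 ± 0.168) and Bhlhe40 (0.67 ± 0.121), which rose. Nr1d1, Nr1d2 and Dbp rose too, and Arntl, Clock, Npas2, Cry1, Cry2 and Ciart fell. Since the hour of collection is not in the labels, a part of time of day in the levels of the immediate early genes was not tested. Of 14 glucocorticoid-responsive genes 4 rose (28.6%) and 1 fell (7.14%), and the 5 called together make 35.7%, near the 32.2% of all genes. Lcn2, which encodes the iron-sequestering protein lipocalin, rose by 2.49 ± 0.201 (adjusted p = 1.19e-10), and Pdk4, a kinase that restrains pyruvate oxidation, fell by 1.06 ± 0.178 (adjusted p = 3.07e-05).

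No gene of these 7 lists passed in either treated group against CDG_HDM as deposited. In both treated groups the last dose was on day 25 of a protocol of 35 days. Under median-of-ratios scaling and quantile normalization, 1 of the 19 upstream regulators passed in AM155 against CDG_HDM. Under dexamethasone, the gene of lowest p in each list was Batf (-0.18), Btg1 (-0.29), Dusp2 (-0.42), Rps6ka1 (-0.15), Hspe1 (-0.29), Per2 (-0.44) and the metallothionein gene Mt2 (0.30), with adjusted p-values from 0.590 to 1.00. In AM155 it was Atf7 (-0.16), Gadd45g (-0.28), Nab2 (-0.15), Creb1 (-0.31), Hspe1 (-0.33), Hlf (0.36) and Mt1 (-0.20), with adjusted p-values from 0.341 to 0.684. Tsc22d3, the textbook glucocorticoid target GILZ, stood at -0.47 ± 0.236 under dexamethasone (adjusted p = 1.00).

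**Figure D5:**
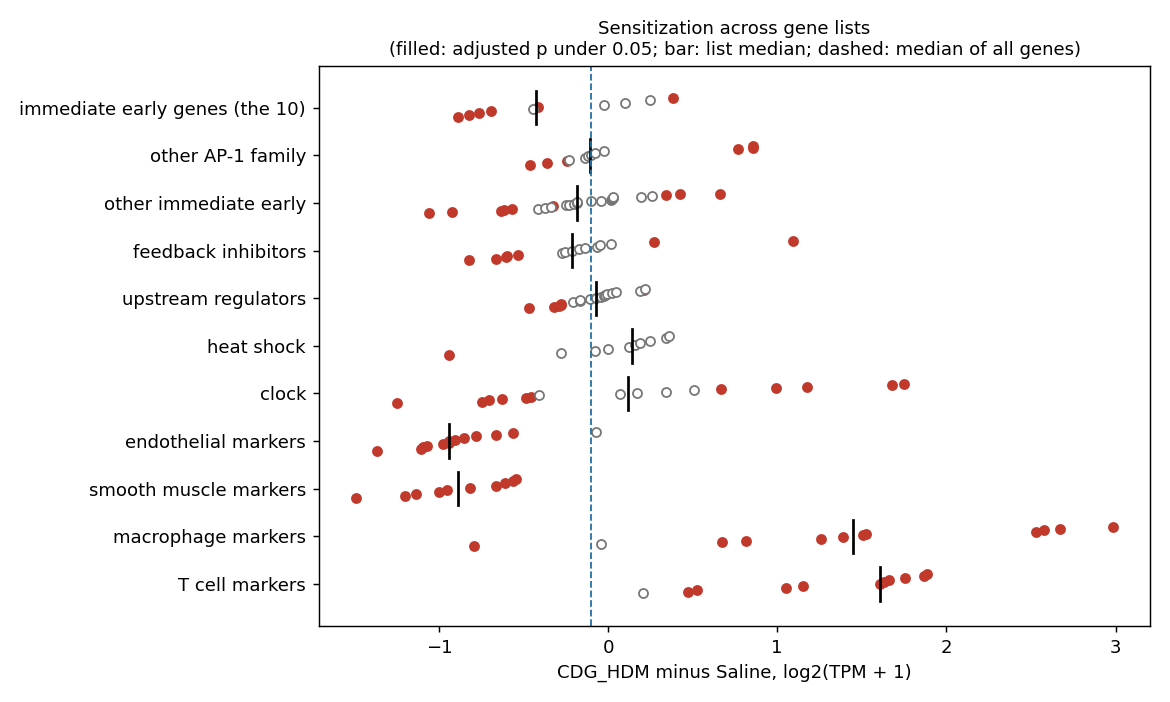
Difference in log2(TPM + 1) between CDG_HDM and Saline for each tested gene, by list; points are genes, filled where the adjusted p was under 0.05, the bar is the median of the list and the dashed line the median of all genes tested, -0.10. The 10 immediate early genes have their median at -0.43, between those of the endothelial markers at -0.94 and the T cell markers at 1.60.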

How the data were processed

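RNA of 27 libraries was analysed from a table of linear transcripts; a second table, of circular transcripts, was used only to look for the same symbols and for each library's total. The authors deposited both in TPM, per the file headers. The genome build was mm10 and CASAVA 1.9 was used, per the submitters' processing notes; which programs aligned and quantified the reads, and against which gene models, is not given in the sources used here. The labels' protocols give both 150 and 100 nucleotides as the read length. Depth is unknown, because TPM keeps no counts, so no counting interval is given.

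Libraries were grouped by the treatment label. The values were taken as log2(TPM + 1), restricted to the 17437 genes that reached 1 TPM in 5 or more libraries, and fitted over all 4 groups with limma 3.58.1 (R 4.3.3) using a trended empirical Bayes spread and Benjamini-Hochberg adjustment. Correlations, exact permutation tests and promoter searches used Python 3.11.15 with scipy 1.17.1 and pandas 2.3.3. The scripts were tested on simulated data. Rows with symbols turned into dates (26) were kept in the fit but never named. The alternatives were a pseudocount of 0.1, no filter, 3 other scalings, only the groups compared, library quality weights, a replicate block, leaving out the 2 libraries of lowest weight together, and leaving out each library.

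The 10 genes, the gene lists and the tests were chosen with earlier results of these data known. Named genes are the 10, the 2 genes of each of the 7 pathway lists with the lowest adjusted p that passed (the one with the lowest p where none did), and the 8 genes most like the mean of the 10. Cell type markers are given by their counts and summed levels. Other genes of a list were named after their values were seen.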

Additional observations from a re-analysis of the deposited data

Results flagged for a closer look

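Each of the 10 genes was examined in each of the 4 groups for a library whose gap to its neighbour was large for the range of the group, and 1 of the 40 cases met the limit, where chance gives about 1 in 20. It was Egr3 in Dex_CDGHDM 1, which was the highest of its group at 2.40 TPM. The next library stood at 1.77 TPM, so that 0.673 of the whole range of the group lay in that gap.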

How the results depend on the processing

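The calls of Fosb, Jun, Egr1, Ier2 and Ier3 in CDG_HDM against Saline held in every alternative run. TPM limits what can be said of depth, and low genes such as Egr3 have their changes understated.

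Genes that did not pass changed sign between settings, and the cause was not tested. Under median-of-ratios scaling, this held in AM155 minus CDG_HDM for Fosb (0.0489), Jun (0.0109), Junb (0.0548), Egr2 (0.000238), Egr3 (0.0119), Ier2 (0.0478) and Atf3 (0.0418), and in CDG_HDM minus Saline for Junb (0.0877), and in Dex_CDGHDM minus CDG_HDM for Ier2 (0.0111). Under quantile normalization, this held in AM155 minus CDG_HDM for Fosb (0.0128), Jun (0.0306), Junb (0.0673), Ier2 (0.0539) and Atf3 (0.0346), and in CDG_HDM minus Saline for Junb (0.0603), and in Dex_CDGHDM minus CDG_HDM for Ier2 (0.0214). With a common sum, this held in AM155 minus CDG_HDM for Fosb (0.0690), Jun (0.0387), Junb (0.0826), Egr2 (0.0257), Egr3 (0.0322), Ier2 (0.0753) and Atf3 (0.0674), and in CDG_HDM minus Saline for Junb (0.14), and in Dex_CDGHDM minus CDG_HDM for Ier2 (0.0402) and Atf3 (0.00498). With the replicate block, this held in CDG_HDM minus Saline for Junb (0.0598), and in Dex_CDGHDM minus CDG_HDM for Jun (-0.11). With quality weights, this held in AM155 minus CDG_HDM for Fosb (0.0786), Junb (0.0696), Egr2 (0.0181), Egr3 (0.12), Ier2 (0.0788) and Atf3 (0.10), and in Dex_CDGHDM minus CDG_HDM for Ier2 (0.0374) and Atf3 (0.0608). Without Saline 4 and AM155 6 together, this held in AM155 minus CDG_HDM for Fosb (0.0619), Junb (0.0327), Egr3 (0.0207), Ier2 (0.0405) and Atf3 (0.0504). With 1 library left out in turn, the sign changed in AM155 minus CDG_HDM for Fosb (-0.0852 to 0.0619), Fos (-0.0129 to 0.15), Junb (-0.0729 to 0.0327), Egr3 (-0.11 to 0.0223), Egr1 (-0.0320 to 0.31), Ier2 (-0.0763 to 0.0405) and Atf3 (-0.13 to 0.0504), in CDG_HDM minus Saline for Junb (-0.13 to 0.0935) and Atf3 (-0.0150 to 0.17), in Dex_CDGHDM minus CDG_HDM for Ier2 (-0.0740 to 0.0528), Jun (-0.0725 to 0.12), Ier3 (-0.00375 to 0.10), Egr2 (-0.12 to 0.0173) and Atf3 (-0.12 to 0.0692).

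The count of all genes called in CDG_HDM minus Saline was 9822 with quality weights and 8660 without Saline 4 and AM155 6. For Dex_CDGHDM minus CDG_HDM it was 0 with a pseudocount of 0.1, 2 with no filter, 47, 64 and 35 under median-of-ratios scaling, quantile normalization and a common sum, 2 with only the groups compared, 11 with weights and 5 without the pair of libraries. For AM155 minus CDG_HDM it was 35, 33 and 38 under these scalings and 28 without the pair. For Dex_CDGHDM minus AM155 it was 111, 112 and 61 under these scalings, 22 with only the groups compared and 26 with weights. For Dex_CDGHDM minus Saline it was 9084 with weights and 7655 without the pair. None of the 10 genes passed in a comparison among the sensitized and treated groups in any of these.

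With 1 library left out, genes called numbered 4546 to 7385 in CDG_HDM minus Saline, 0 to 2 in Dex_CDGHDM minus CDG_HDM, 7 to 21 in AM155 minus CDG_HDM (fewest without AM155 8), 9 to 34 in Dex_CDGHDM minus AM155 (most without AM155 11), 3435 to 6077 in Dex_CDGHDM minus Saline and 5520 to 9484 in AM155 minus Saline. The members called numbered 5 to 7 of 10 in CDG_HDM minus Saline and 0 in each comparison without Saline. Fos passed only without Saline 10. Egr2 lost its call without Saline 4, alone or with AM155 6 (0.24, adjusted p = 0.0827). The log2 ratio of Fosb to Fos ran from -0.55 to -0.28, that of Egr1 to Egr2 from -1.69 to -1.21 and that of Jun to Junb from -0.85 to -0.66. With a pseudocount of 1, chosen after seeing the data, the ratios differed by -0.25, -1.21 and -0.74.

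Replicate numbers occur in several groups, so a replicate block was fitted. Of 20 same-numbered pairs, 2 had deviations correlated above 0.1 (median r = 0.02, from -0.24 to 0.27). Of 246 pairs with unlike numbers, 69 did (median r = -0.01, from -0.47 to 0.47). The correlations thus gave no sign that the numbers pair the libraries, though a weak shared effect could be missed in that spread. With the block, 3315 genes passed in CDG_HDM minus Saline, 0 in Dex_CDGHDM minus CDG_HDM, 10 in AM155 minus CDG_HDM and 2815 in Dex_CDGHDM minus Saline. Of the 10 genes, 6 passed in CDG_HDM minus Saline with it, and Fosb missed in Dex_CDGHDM minus Saline (-0.45, adjusted p = 0.0589).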
